A study of Mus musculus with 30 samples.

Results

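The genes of motile cilia and of the ependyma, the ciliated lining of the brain ventricles, were followed across the whole brain of *Arid1b*+/- (HT) and wild-type (WT) mice. The set was a list of 41 named genes of the axoneme and of multiciliated cells, named for what they are known to do and chosen with earlier results of these data in view, and 40 of them were among the 19737 genes of the table; *Mcidas* was not analysed here. The list held 4 regulators, 3 outer arm and 8 inner arm dynein heavy chains, 4 radial spoke genes, 6 central apparatus genes, 9 genes of the ruler, the nexin link and the microtubule doublets, and 7 others. Whole-brain RNA was sequenced from 30 male C57BL/6N mice in 6 groups of 5. The HT mice carried, in every cell, 1 CRISPR-made allele of *Arid1b* that truncates the protein at exon 5, while WT mice carried none. The groups P10-WT and P10-HT were taken at postnatal day 10 (P10) with no drug or vehicle. The groups WT-Veh, HT-Veh, WT-Flx and HT-Flx were taken at P120, and their mothers had drunk 0.2% saccharin (vehicle) or 0.2% saccharin with 0.1 mg/ml fluoxetine, a serotonin reuptake inhibitor, from P3 to P21, so that pups received the drug through the milk.

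A motile cilium is built on a ring of microtubule doublets around a central pair, and it beats because dynein motors on each doublet slide it against the next, under the control of radial spokes, the central apparatus and the nexin links. In the brain, ependymal cells carry tufts of such cilia that move cerebrospinal fluid, and epithelial cells of the choroid plexus, which secrete that fluid, also carry cilia and express part of the same programme. The transcription factor *Foxj1* and the Rfx factors switch on the genes of the axoneme, and defects in many of them cause primary ciliary dyskinesia or hydrocephalus. Ependymal cells are a small part of the brain, and in whole tissue fewer cells of a type and less RNA per cell cannot be told apart.

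The values were read counts scaled between libraries by the authors, and sums per library ran from 31578614 to 41801037. *Arid1b* itself was at 3164 to 3309 in P10-WT against 2162 to 2334 in P10-HT, and at 2961 to 3392 in WT-Flx against 2164 to 2616 in HT-Flx. In adult vehicle mice 2 libraries went against their label, since replicate 2 of HT-Veh was at 3361 and replicate 2 of WT-Veh at 2320, and the counts of members and of gene lists that used them are given again without them. No marker of neurons, astrocytes, oligodendrocytes, microglia or endothelium on the lists was at 0 in any library. The libraries differed in how values followed the GC content of transcripts. The slope of a library's log2 deviation from the mean per 10 percentage points of GC was 0.017 to 0.045 in P10-WT, -0.18 to 0.035 in P10-HT, -0.27 to 0.20 in WT-Veh, -0.40 to 0.43 in HT-Veh, -0.41 to -0.31 in WT-Flx and 0.29 to 0.71 in HT-Flx. Members ranged from 39.9% GC (*Ccdc39*) to 61.4% (*Foxj1*), so the counts and medians of members at P120, and the differences that its results turn on, are given as deposited and again after a correction that centred every library over the genes of like GC content and transcript length (100 bins). Differences below are on the log2(value + 1) scale, and a gene was called when its Benjamini-Hochberg adjusted p from limma, over all genes tested, was under 0.05.

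All 40 members were detected in every library, with a lowest value of 3.17 (*Spag17*), and 23 of them averaged at least 100 over the 30 libraries. Per kilobase of transcript, the mean level was highest for *Rsph9*, a radial spoke head protein, at 374 per kb. *Foxj1* followed at 215 per kb, the X-box factor gene *Rfx3* at 192, and *Ccdc39*, a coiled-coil protein of the molecular ruler that spaces the repeats along the doublet, at 168. The lowest levels per kb were those of the inner arm dyneins *Dnah12* (4.47), *Dnah7a* (4.05) and *Dnah3* (3.82) and of *Spag17*, a central apparatus scaffold (2.67). The members' median was 25.5 per kb, against 180 per kb for all genes with a mean of at least 10. Within groups the members varied unequally between mice. Pooled over groups, the coefficient of variation was 12.4% for *Cfap65* and 53.3% for *Dnah12*, and its median over members ran from 17.4% in P10-WT to 33.7% in HT-Veh.

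Rfx factors bind a promoter element called the X-box, so the promoters of the members were searched for it and the matches are shown here as the sequences that members share. RefSeq promoters (GRCm38.p6, 250 bases before to 50 after the start) were held for 35 of the 41 listed genes. The letters GTTNCC, followed 3 bases on by GNAAC, were looked for on both strands, after 2 spellings of the element had been counted. They stood in 6 of the 35 promoters (17.1%), against 0.936% of all 27025 promoters in the table, and in 3 of 40 promoters (7.5%) of the other motile cilia genes. The other spelling, GTTNCC followed 2 bases on by GGNAAC, stood in 0 of the 35 promoters, against 0.529% of all, and in 1 of the 40 (2.5%). The 6 matches of the first follow on the strand of each gene, with the matched letters in capitals:
Cfap44: ggagggacGTTGCTATGGCAACcgcagtaa
Cfap61: gccgcgtcGTTTCCTTAGCAACtgtgtgcg
Enkur: tagcaactGTTTCCTTAGCAACcacgtggt
Hydin: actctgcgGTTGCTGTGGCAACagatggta
Spag16: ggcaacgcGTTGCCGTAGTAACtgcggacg
Tekt4: tatacaatGTTCCTTAGGCAACcaggaacc
The stretches lie at chr16:44394764-44394793 (plus strand), chr2:145934768-145934797 (plus), chr2:21205356-21205385 (minus), chr8:110266948-110266977 (plus), chr1:69826859-69826888 (plus) and chr17:25471582-25471611 (plus). The matched 14 bases were the same in *Cfap61* and *Enkur*, and in *Cfap44*, *Hydin* and *Tekt4* the pattern reads on the opposite strand. The match began 27 bases before the start of *Cfap44*, 21 before *Hydin*, 12 before *Enkur*, 8 before *Cfap61* and 103 before *Spag16*, and at the start itself of the *Tekt4* transcript of the RefSeq table. That start is also the one of the coding transcript *Tekt4*-201, while the gene as annotated begins upstream, at chr17:25454615, with a noncoding transcript. A shorter pattern, GTTGCC, which can overlap the longer one, stood in 16 of the 35 promoters (45.7%) against 14.1% of all, and 5 of the 6 sequences' promoters held it. The forkhead pattern GTAAACA stood in 3 (8.57%; *Ak7*, *Cfap43* and *Mlf1*) against 4.05%. The members with a long match did not share a direction with age: *Tekt4* rose in WT, *Cfap61* and *Enkur* fell in WT, *Cfap44* fell in HT, and *Hydin* and *Spag16* passed the test in neither genotype. The call of *Cfap44* was lost with the GC and length correction.

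Between P10 and P120 the members moved in both directions. In both genotypes *Foxj1*, *Rfx2*, *Dnah1* and the dynein assembly factor gene *Zmynd10* rose, while *Rfx3*, the ruler pair *Ccdc39* and *Ccdc40*, *Dnah2*, *Dnah5*, *Dnah10*, *Mlf1*, *Rsph4a* and *Spag17* fell. In WT, 19 of the 40 members were called, 7 higher and 12 lower, where 58.3% of all genes tested were called (28.9% higher, 29.4% lower). In HT, 18 were called, 5 higher and 13 lower, where 51.1% of all genes were (25.8% higher, 25.3% lower). In neither genotype was the share of members called larger than that of all genes. The members' median difference was -0.03 in WT (-0.01 over all genes tested) and -0.16 in HT (-0.02). After the GC and length correction the medians were 0.02 in WT and 0.06 in HT, of the opposite sign. Leaving out 1 library gave -0.08 to 0.05 in WT, where it was positive only without P10-WT replicate 1, and -0.27 (without HT-Veh replicate 4) to -0.03 (without HT-Veh replicate 1) in HT. With the GC and length correction 16 members were called in WT, beside 59.6% of all genes, and 17 in HT, beside 55.9%. The calls lost with it were those of *Dnah7a*, *Rsph4a* and *Spag17* in WT and of *Rfx2*, *Rsph4a*, *Cfap44*, *Cfap54* and *Cfap69* in HT. *Dnah9* and *Meig1* (higher) and *Rsph9* and *Drc1* (lower) were called in HT with the correction alone. Without WT-Veh replicate 2 the count in WT was 20 (8 higher, 12 lower; 56.1% of all genes), with *Dnah9* added. Without HT-Veh replicate 2 that in HT was 15 (5 higher, 10 lower; 45.6% of all genes), with *Dnah10*, *Mlf1*, *Cfap54* and *Cfap69* lost and *Cfap61* added. The P10 mice had received no vehicle and no preparation dates are given, so age, the vehicle and any batch that went with them cannot be told apart.

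**Figure D1:**
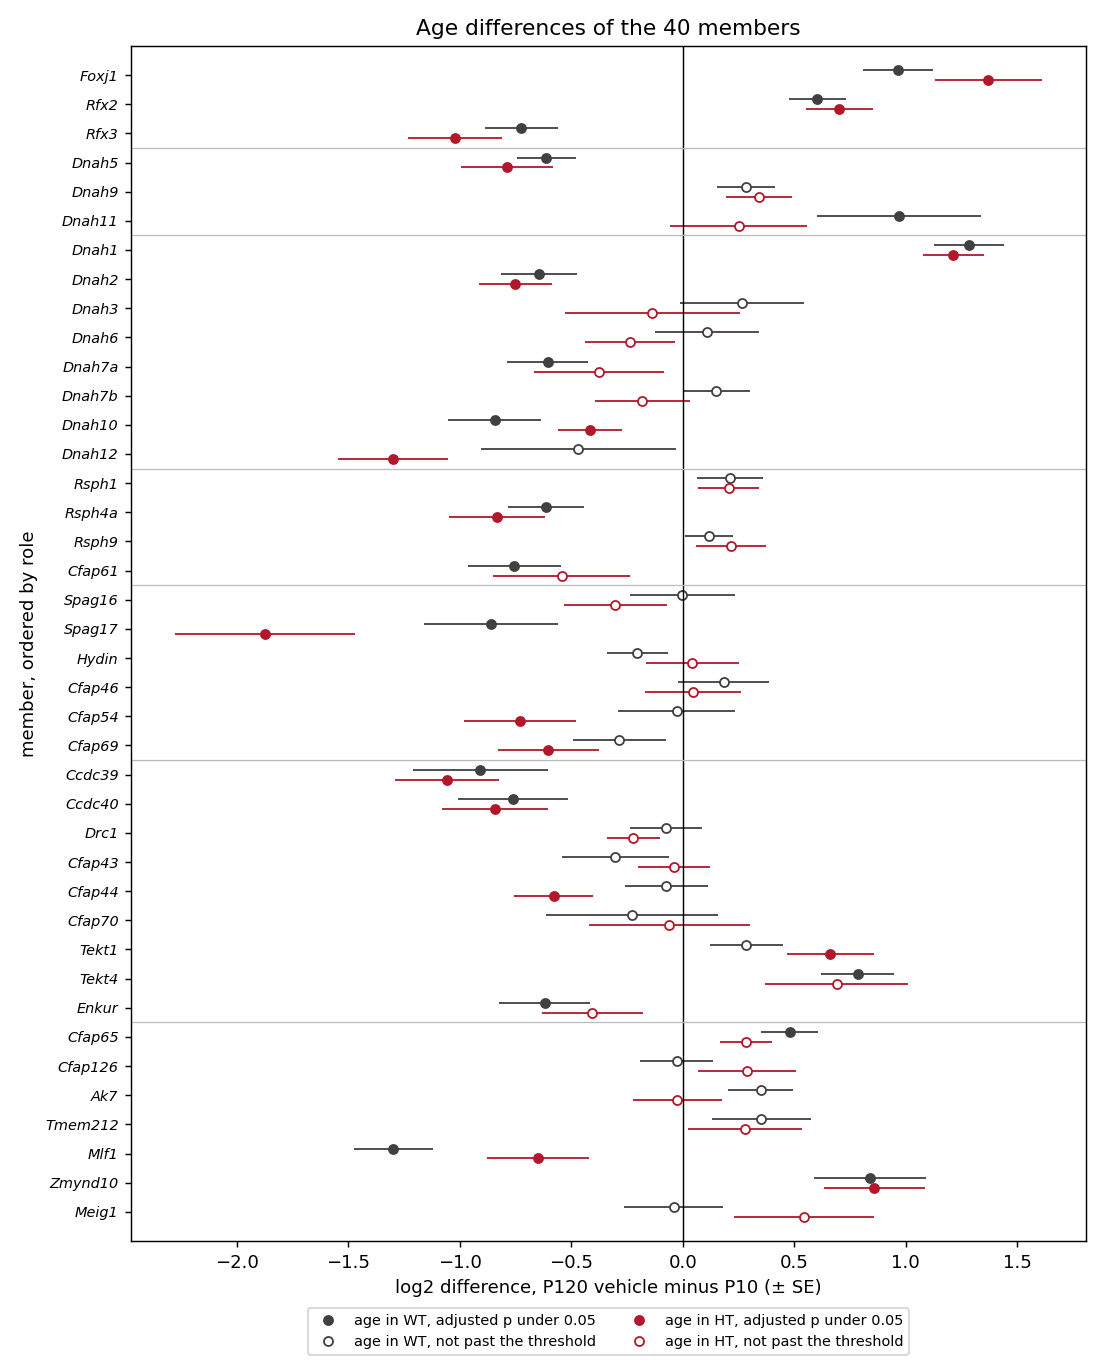
The log2 difference between P120 vehicle and P10 mice (x axis) is plotted for the 40 members, ordered by role, with 1 point and SE bar for WT (grey) and 1 for HT (red) in each line; filled points passed the adjusted p of 0.05. *Foxj1*, *Rfx2*, *Dnah1* and *Zmynd10* lie to the right in both genotypes and *Rfx3*, *Ccdc39*, *Ccdc40*, *Mlf1* and *Spag17* to the left.

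The 4 higher calls shared by the genotypes were 57.1% of those in WT and 80% of those in HT. The 9 shared lower calls were 75% and 69.2%. These comparisons have no library in common, and 58.3% of all genes were called in WT and 51.1% in HT. How many calls the genotypes shared over all genes is not given here, so these counts are not read as a result about the members. Without replicate 2 of both vehicle groups the shared calls were 4 higher and 8 lower, and the sign was the same in 34 members. Over all libraries the sign was the same in 33 of 40 members (82.5%), against 88% of the 17729 genes tested in both. *Dnah11*, *Tekt4* and *Cfap65* were called higher, and *Dnah7a*, *Cfap61* and *Enkur* lower, in WT alone. *Tekt1* was called higher, and *Dnah12*, *Cfap54*, *Cfap69* and *Cfap44* lower, in HT alone; with the correction *Dnah12* remained of these 4 lower calls. Whether the age difference itself differed between genotypes was not tested.

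The regulators moved in opposite directions with age. *Foxj1* (ENSMUSG00000034227, chr11:116330704-116335399, minus strand, GRCm38), the forkhead factor that drives motile ciliogenesis, was at 304, 351, 332, 268 and 255 in P10-WT and at 470.2, 609, 716, 768 and 442 in WT-Veh. In HT it was at 211, 258, 313, 303 and 287 at P10 and at 864, 765, 1214, 456 and 475 in HT-Veh. Every adult vehicle mouse lay above every P10 mouse of its genotype, and the HT-Veh mice formed a lower pair and a higher trio. The log2 difference was 0.97 ± 0.16 (SE, adjusted p = 0.000165) in WT and 1.37 ± 0.24 (adjusted p = 0.000463) in HT, and the exact permutation p was 0.00794 in each, the smallest that 252 arrangements of 5 and 5 mice allow. The 2 lower HT-Veh mice, replicates 4 and 5, were the libraries of that group with negative GC slopes (-0.40 and -0.33); with the correction the differences were 0.75 and 0.97 and both remained called.

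*Rfx2*, an X-box factor that acts with *Foxj1*, was at 120.4, 132, 152, 112 and 109 in P10-WT and 168, 193, 228, 193 and 169.8 in WT-Veh. HT mice had 93.5, 148, 121, 115 and 91.3 at P10 and 195, 197, 179, 172 and 171 at P120. P10 and adult vehicle mice did not overlap in either genotype, and the rise was 0.60 ± 0.13 (adjusted p = 0.00125) in WT and 0.70 ± 0.15 (adjusted p = 0.00188) in HT. After the correction the HT difference of 0.31 no longer passed (adjusted p = 0.135). *Rfx3*, the X-box factor with the highest values of the set, went the other way, from 2426, 2481, 2428, 2497 and 2351 in P10-WT to 2011, 1604, 881, 1489.5 and 1648 in WT-Veh. In HT it went from 2633, 2363, 2498, 2516 and 2594 at P10 to 761, 1015, 1136, 1930.4 and 1732 at P120. The P10 mice were tightly grouped and lay above all adult mice of their genotype, which spread widely. *Rfx3* fell by 0.72 on the log2 scale in WT (adjusted p = 0.00213) and by 1.02 in HT (adjusted p = 0.0015). With the correction the differences were -0.26 and -0.38, and both remained called.

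**Figure D2:**
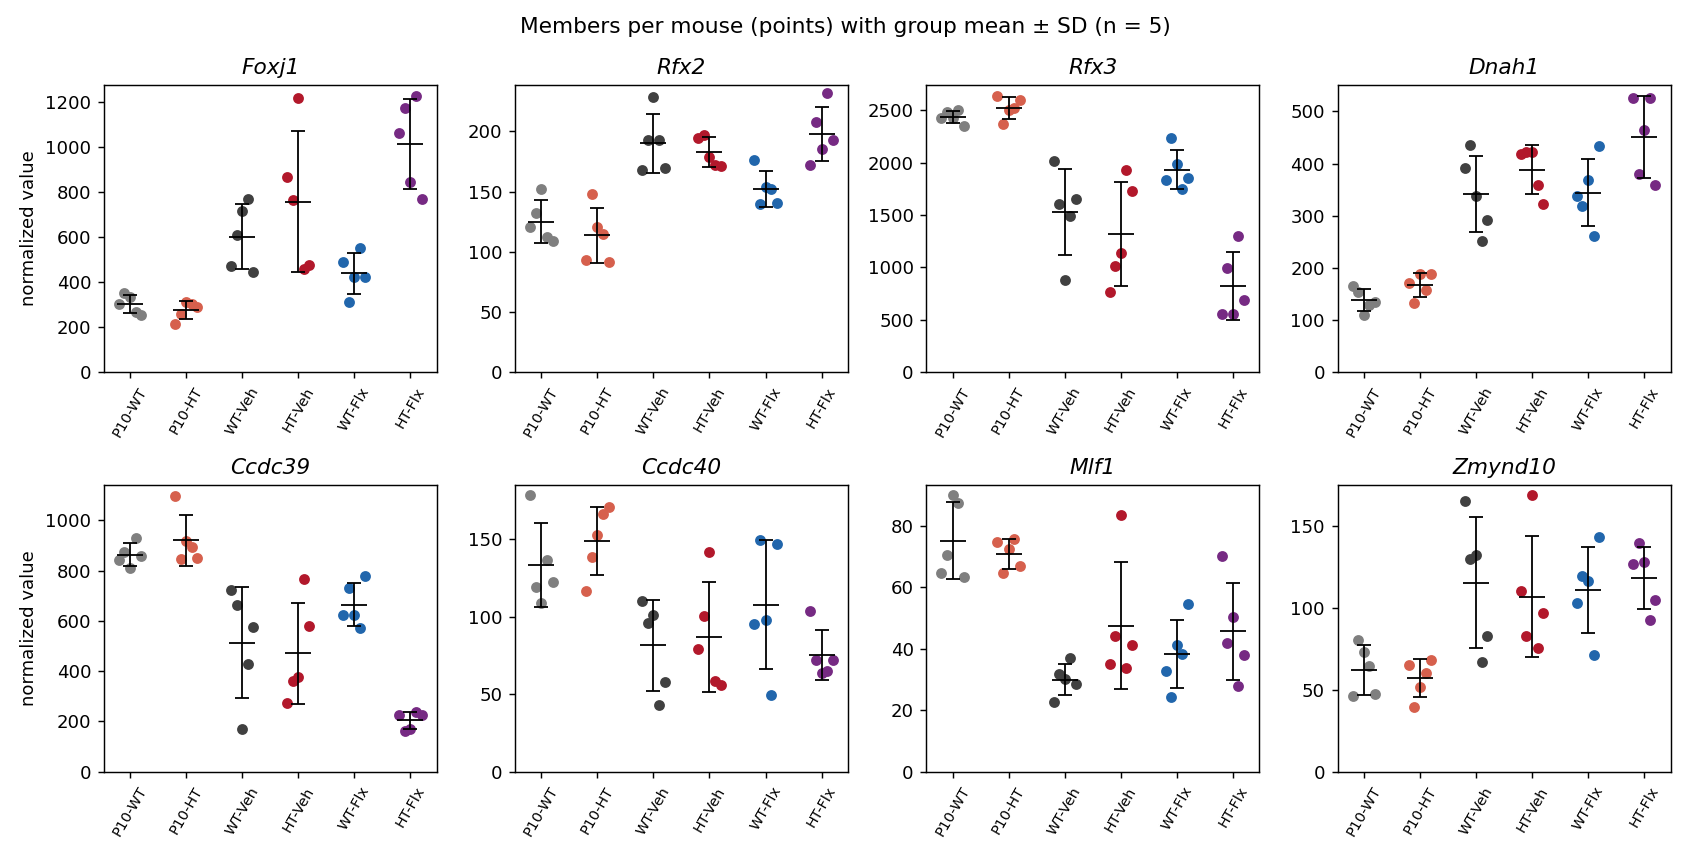
Normalized values (y axis, from 0) of 8 members are shown for each mouse (points) in the 6 groups (x axis), with the group mean and SD (bars, n = 5). *Foxj1*, *Rfx2*, *Dnah1* and *Zmynd10* stand lower at P10 than in WT-Veh and HT-Veh, *Rfx3*, *Ccdc39*, *Ccdc40* and *Mlf1* stand mostly higher, and *Ccdc39* lies lowest in HT-Flx.

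Among the dynein heavy chains, the motor subunits that pull on the neighbouring doublet, *Dnah1* rose most over all libraries. This inner arm chain (chr14:31260375-31323896, minus strand) was at 165, 153, 110.3, 129 and 135 in P10-WT and 391, 435, 338, 252 and 291 in WT-Veh. In HT it was at 171, 133, 189, 157 and 187 at P10 and, in adults, at 418, 423, 422, 358 and 322. No adult mouse overlapped a P10 mouse, and the differences of 1.28 ± 0.16 (adjusted p = 1.52e-05) and 1.21 ± 0.14 (adjusted p = 1.39e-05) were nearly the same with the correction (1.27 and 1.18). Other inner arm chains of like GC content fell. *Dnah10*, at 54.0% GC beside 53.4% for *Dnah1*, was at 187, 172, 334, 209 and 207 in P10-WT and 115, 168, 102, 85.02 and 147 in WT-Veh, a fall of 0.84 (adjusted p = 0.00366). Its fall in HT was 0.42 (adjusted p = 0.0267), from 175, 172, 172, 124 and 187 to 126, 110.2, 139.7, 126 and 116. In WT the highest P10 value, replicate 3, stood far above its group, while in HT the ages overlapped and the call was lost without any 1 of P10-HT replicates 1, 2, 3 and 5 and HT-Veh replicates 2 and 5. *Dnah2*, at 53.5% GC, fell by 0.64 and 0.75 (adjusted p = 0.00559 and 0.00219).

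*Dnah12*, an inner arm chain at 41.9% GC, was at 113, 87.01, 102, 73.2 and 72.2 in P10-HT and 23.4, 25.7, 42.6, 37.1 and 56.8 in HT-Veh. It fell by 1.30 there (adjusted p = 0.000816), with no overlap of the ages. In WT it was at 65.4, 43.9, 74.97, 73.3 and 52.3 at P10 and at 42.7, 36.7, 15.97, 40.3 and 152 in WT-Veh. Of the WT-Veh mice replicate 5 alone exceeded all P10 mice, and the difference of -0.47 ± 0.44 did not pass (adjusted p = 0.374). *Dnah7a* and *Dnah7b* are near copies: 45.7% of the 31-base words of the *Dnah7a* transcript also occur in *Dnah7b*, and 52.3% of those of *Dnah7b* occur in *Dnah7c*, which the table also lists. The split of reads among them is uncertain. *Dnah7a* fell by 0.61 in WT (adjusted p = 0.0114; -0.38 ± 0.29 in HT, adjusted p = 0.295), and *Dnah7b* differed by 0.15 ± 0.15 in WT and -0.18 ± 0.21 in HT, not called in either. The call for *Dnah7a* was lost with the correction. *Dnah3* and *Dnah6* were called in neither genotype, with differences between -0.24 and 0.27.

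The outer arm chains, which set the power of the beat, split as well. *Dnah5* fell by 0.61 in WT and 0.79 in HT (adjusted p = 0.00142 and 0.00655). *Dnah11* was at 99.2, 176, 95.5, 80.7 and 97.6 in P10-WT and 147, 79.7, 375, 314 and 283 in WT-Veh. Replicate 1 of WT-Veh lay within the P10 range, replicate 2 just below it, and the other three far above it. The rise of 0.97 ± 0.37 was called by limma (adjusted p = 0.0368), while the exact permutation p was 0.0873. The call was lost when any 1 of 7 of the 10 libraries was left out (P10-WT replicate 1, 3, 4 or 5, or WT-Veh replicate 3, 4 or 5). Without WT-Veh replicate 2, which went against its label, the difference was 1.315 ± 0.28 (limma adjusted p = 0.00165). *Dnah9*, the outer arm chain with the highest mean (231), differed by 0.28 ± 0.13 and 0.34 ± 0.15 and was not called (adjusted p = 0.0763 and 0.0688).

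The radial spokes carry signals from the central pair to the dyneins. Their most abundant member, *Rsph9*, was at 334, 344, 321, 369 and 282 in P10-WT and 345, 426, 353, 369 and 300.4 in WT-Veh, ranges that overlapped, and was not called (differences 0.12 ± 0.11 and 0.22 ± 0.16). *Rsph4a*, its partner in the spoke head, fell by 0.61 in WT and 0.83 in HT (adjusted p = 0.00745 and 0.00596); both calls were lost with the correction. *Cfap61*, at the spoke base, fell in WT by 0.76 (adjusted p = 0.00713), and *Rsph1* was not called. Of the 6 central apparatus genes, 1 was called in WT and 3 in HT, all lower. Of all genes 58.3% were called in WT (29.4% lower) and 51.1% in HT (25.3% lower). With the correction 0 and 1 were called, beside 59.6% and 55.9% of all genes. Without the vehicle replicate 2 libraries 1 and 1 were called, beside 56.1% and 45.6%. *Spag17*, required for the central pair to assemble, was at 46.8, 36.8, 40.4, 103 and 17.5 in P10-HT and 6.89, 7.71, 15.6, 16.3 and 9.98 in HT-Veh. All HT-Veh mice lay below all P10-HT mice, which themselves spread widely. It fell by 1.87 in HT (SE 0.40, adjusted p = 0.00197) and by 0.86 in WT (SE 0.30, adjusted p = 0.026; call lost with the correction, and without P10-WT replicate 2, 4 or 5 or WT-Veh replicate 3). *Cfap69*, the central apparatus gene with the highest mean (481), fell by 0.60 in HT with an exact permutation p of 0.0873; after the correction the difference was 0.04. Its call was lost without any 1 of P10-HT replicates 1, 2, 3 and 5 and HT-Veh replicates 1, 2 and 3, and that of *Cfap54* without P10-HT replicate 4 or HT-Veh replicate 1, 2 or 3.

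The ruler genes fell together. *Ccdc39* (chr3:33812362-33844310, minus strand) was at 843, 873, 809, 931 and 858 in P10-WT and 723, 665, 171, 427 and 577 in WT-Veh. In HT it was at 1095, 844, 917, 895 and 848 at P10 and, in adults, at 272, 359, 376, 767 and 581. No adult vehicle mouse reached the lowest P10 mouse of its genotype. *Ccdc39* fell by 0.91 in WT and by 1.06 in HT (adjusted p = 0.0206 and 0.00215). Its partner *Ccdc40*, without which the ruler does not form, was at 178, 119, 109, 136 and 123 in P10-WT and 110.2, 95.8, 101, 43.2 and 58.05 in WT-Veh. HT mice had 116, 139, 153, 166 and 170.4 at P10 and 78.8, 100.3, 142, 58.3 and 55.9 at P120. P10 and adult vehicle mice overlapped by single mice, and the fall was 0.76 and 0.84 (adjusted p = 0.0175 and 0.01). The pair differ widely in GC content (39.9% and 54.6%), and with the correction both were still called lower in both genotypes, with differences of -0.56 and -0.89 in WT and -0.57 and -1.09 in HT.

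Of the tektins, filament proteins inside the doublets, 2 were members, and each was called higher in adults of 1 genotype. *Tekt4* was at 26.6, 23.2, 26.7, 26.9 and 26.1 in P10-WT and 35.8, 48.6, 50.002, 50.3 and 43.4 in WT-Veh and rose by 0.78 ± 0.16 (adjusted p = 0.00112), with no overlap. In HT-Veh it was at 77.2, 52.3, 99.6, 32.1 and 31.7 and its difference of 0.69 ± 0.32 did not pass (adjusted p = 0.0875). *Tekt1* was at 39.4, 47.6, 53.3, 43.9 and 29.02 in P10-HT and 58.8, 67.4, 71.6, 57.6 and 81.3 in HT-Veh and rose by 0.66 ± 0.19 (adjusted p = 0.012). *Drc1*, of the nexin link, *Cfap43*, of the tether that holds an inner arm dynein, and *Cfap70* were called in neither genotype. *Cfap44*, the partner of *Cfap43* in that tether, fell in HT (-0.58, a call lost with the correction, -0.25), and *Enkur*, a protein of the doublet lumen, fell in WT (-0.62).

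Of the remaining members, *Zmynd10*, which is needed in the cytoplasm to assemble dynein arms, was at 46.04, 80.3, 73.5, 64.6 and 47.5 in P10-WT and 166, 129.9, 133, 66.9 and 83.2 in WT-Veh. In HT it was at 65.5, 39.8, 51.7, 60.2 and 68.3 at P10 and, in adults, at 110.2, 83.2, 169, 75.5 and 97.1. The HT ages did not overlap, and the rise was 0.84 ± 0.25 in WT and 0.86 ± 0.23 in HT (adjusted p = 0.0111 and 0.00705). *Mlf1* showed the largest fall in WT, from 64.7, 70.4, 90.03, 87.4 and 63.5 to 22.7, 31.9, 30.1, 36.9 and 28.5, by 1.30 (adjusted p = 3.59e-05). In HT it went from 74.8, 64.7, 72.4, 75.6 and 66.8 to 34.97, 44.1, 83.6, 33.6 and 41.2 and fell by 0.65 (adjusted p = 0.031). HT-Veh replicate 3 stood above the P10-HT mice and apart from the other HT-Veh mice. The HT call was lost without any 1 of P10-HT replicates 1, 3, 4 and 5 and HT-Veh replicates 1, 2, 4 and 5. Replicate 3 was the highest of its group for *Zmynd10* (169) and *Meig1* (106). *Cfap65*, the gene of this group with the highest mean (338), was called higher in WT (0.48 ± 0.13, adjusted p = 0.00605) and missed the threshold in HT (0.28 ± 0.12, adjusted p = 0.0549). *Cfap126*, the adenylate kinase gene *Ak7*, *Tmem212* and *Meig1* were called in neither genotype, nor was *Hydin*, *Cfap46* or *Spag16* of the central apparatus.

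Lists of related genes are given beside the 58.3% of all genes called in WT and the 51.1% called in HT, and differences between lists were not tested. With the GC and length correction these shares were 59.6% and 55.9%, and without the vehicle replicate 2 libraries 56.1% and 45.6%. Of the other motile cilia genes, 8 rose and 7 fell among 43 tested in WT, and 5 rose and 9 fell among 44 in HT, both shares below those of all genes. Of the other genes of multiciliogenesis, 2 rose and 6 fell among 15 in WT, and 3 rose and 4 fell in HT. Of the other ependymal markers, 3 rose and 2 fell among 11 in each genotype. Most markers of the choroid plexus epithelium, whose cells also express *Foxj1*, were called higher: 14 of 20 rose and 1 fell in WT, and 15 rose and 2 fell in HT. Corrected in this way, the higher and lower calls of the other motile cilia genes were 9 and 10 in WT and 8 and 6 in HT, those of the multiciliogenesis genes 3 and 5 in each, those of the ependymal markers 2 and 5 in WT and 3 and 1 in HT, and those of the choroid plexus 15 and 0 in WT and 15 and 1 in HT. Without the vehicle replicate 2 libraries the other motile cilia genes in HT divided into 6 higher and 6 lower, and every other one of these counts moved by at most 1. The choroid plexus's summed value was 18678 to 25209 in P10-WT, 13257 to 19566 in P10-HT, 36546 to 50493 in WT-Veh and 39346 to 53469 in HT-Veh, and none of its 20 markers was at 0 in any library. The part of choroid plexus RNA in the age differences of *Foxj1*, *Rfx2* and *Dnah1* was not tested.

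**Figure D3:**
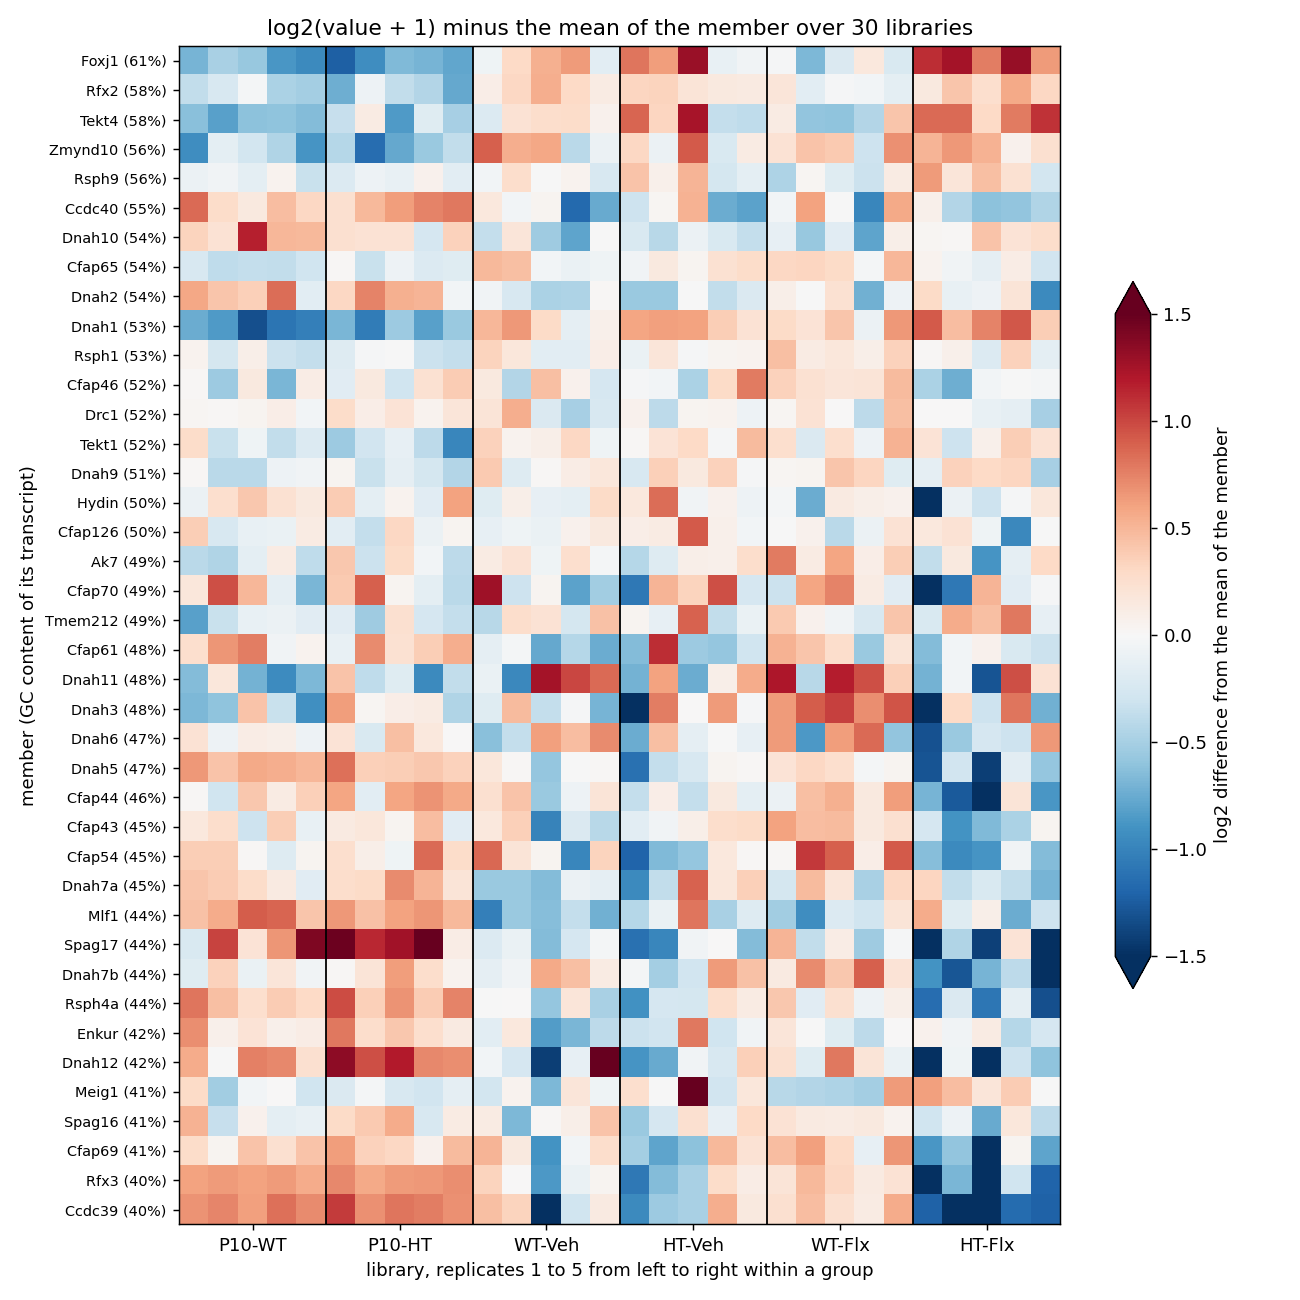
Each column is a library (replicates 1 to 5 from left to right within a group) and each line a member, ordered by the GC content of its transcript from 61% (top) to 40% (bottom). Colour gives log2(value + 1) minus the member's mean over the 30 libraries, cut off at -1.5 and 1.5; in HT-Flx, *Foxj1* and *Tekt4* near the top are above their means and *Rfx3* and *Ccdc39* at the bottom are below theirs in all 5 libraries.

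At P10 no difference between genotypes passed the test for a member. None of 40 was called, with 0.0224% of 17896 genes called in all, and 3 had an unadjusted p under 0.05, as had 12.6% of all genes. The members' median was 0.08 (-0.01 over all genes), and *Foxj1* (-0.14 ± 0.12, SE), *Rfx2* (-0.15 ± 0.14) and *Rfx3* (0.05 ± 0.04) were not called. *Dnah12* had the smallest unadjusted p, with a difference of 0.53 ± 0.18 (adjusted p = 0.317), and its 2 groups overlapped. *Dnah10* followed at -0.39 ± 0.17 (adjusted p = 0.372). The summed choroid plexus markers, given above, overlapped between P10-HT and P10-WT with a median difference of -0.32 over the 20 markers, none of them called.

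In adult vehicle mice, compared over replicates 1, 3, 4 and 5 of each genotype, none of the members was called, as 0% of 17784 genes were, and 1 had an unadjusted p under 0.05 (1.29% of all genes). The count was also 0 over all 5 and 5 libraries and with the GC and length correction, and the members' median was 0.03 as deposited and 0.05 with the correction. *Foxj1* differed by 0.25 ± 0.32, *Rfx2* by -0.07 ± 0.17 and *Rfx3* by -0.15 ± 0.32, each smaller than its SE. The smallest unadjusted p belonged to *Dnah11*, at 95.6, 92.9, 166 and 231 in the HT-Veh mice against 147, 375, 314 and 283 in those of WT-Veh. The difference of -0.95 ± 0.35 had an adjusted p of 1 and an exact permutation p of 0.0857, where 4 against 4 mice allow no p under 0.0286. *Mlf1* came next at 0.61 ± 0.32. With the correction the differences of *Dnah11* and *Mlf1* were -0.80 and 0.47.

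Between HT-Flx and WT-Flx, 19 members were called, 5 higher and 14 lower, in a comparison where 63.7% of 17799 genes were called (33.1% higher, 30.5% lower). The members' median was -0.37, against 0.02 over all genes tested. *Foxj1* was the member with the largest positive difference and *Ccdc39* the one with the largest negative difference. With the GC and length correction 12 members were called, 4 higher and 8 lower, beside 35.9% of all genes, and the members' median was -0.28. Only 5 of the 19 calls were kept with the same direction, namely *Foxj1* higher and *Ccdc39*, *Dnah7b*, *Cfap46* and *Cfap65* lower. The other calls with the correction were *Spag16*, *Enkur* and *Meig1* higher and *Rfx2*, *Rsph1*, *Ccdc40* and *Drc1* lower.

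*Foxj1* was at 487, 309, 423, 550.4 and 419.8 in WT-Flx and 1061, 1171, 844, 1223 and 768 in HT-Flx. No mouse of one group reached the other, and the difference was 1.21 ± 0.17 (adjusted p = 7.97e-05) as deposited and 0.47 (adjusted p = 0.0109) with the correction. *Ccdc39* was at 624, 729, 622, 571 and 776 in WT-Flx and 226, 164, 172, 237 and 227 in HT-Flx. The groups stood far apart, with a difference of -1.70 ± 0.13 (adjusted p = 3.06e-05) and -0.71 with the correction (adjusted p = 0.00292). Its ruler partner *Ccdc40* was not called as deposited (-0.43 ± 0.27) and was called lower with the correction (-0.92, adjusted p = 0.0205), as was *Drc1*.

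*Dnah7b*, the near copy of *Dnah7a*, was at 288, 428, 349, 489.6 and 303 in WT-Flx and 141, 107, 161, 199 and 84.2 in HT-Flx, with no overlap. It differed by -1.45 ± 0.23 (adjusted p = 0.000158) and by -0.78 with the correction (adjusted p = 0.0295), while *Dnah7a* was not called (-0.31 ± 0.24). *Dnah12* was at 52.5, 38.9, 77.2, 50.6 and 41.2 in WT-Flx and 5.56, 42.3, 5.84, 35.5 and 28.6 in HT-Flx, where replicate 2 lay within the WT-Flx range. Its difference of -1.49 ± 0.52 passed (adjusted p = 0.0246), but not with the correction (-0.57), nor without WT-Flx replicate 3 or HT-Flx replicate 1 or 3. *Cfap54*, a central apparatus scaffold, was at 192, 394, 352, 203 and 359 in WT-Flx and at 121, 96.6, 102, 183 and 120.3 in HT-Flx and differed by -1.24 ± 0.24 (adjusted p = 0.000617), a call lost with the correction.

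*Rfx3* was at 1832, 2237, 1989, 1750.1 and 1856 in WT-Flx and 552, 991, 549.5, 1302 and 692 in HT-Flx, with no overlap and a difference of -1.32 ± 0.21 (adjusted p = 0.000192). With the correction the difference was -0.22 and was not called (adjusted p = 0.0887). *Rfx2* turned its direction: 0.37 ± 0.12 as deposited (adjusted p = 0.0142) and -0.38 with the correction (adjusted p = 0.0327). *Tekt4* (0.99 ± 0.23), *Dnah10* (0.50 ± 0.17) and *Dnah1* (0.39 ± 0.15) were higher as deposited (adjusted p = 0.00249, 0.022 and 0.0408), and none of these 3 calls was kept with the correction. The call of *Dnah10* was also lost without WT-Flx replicate 2 or 4 or HT-Flx replicate 3, and that of *Dnah1* without WT-Flx replicate 1, 2, 3 or 4 or HT-Flx replicate 1, 3 or 4. The other lower calls as deposited were *Dnah3*, *Dnah5*, *Rsph4a*, *Cfap69*, *Cfap43*, *Cfap44* and *Ak7*, none of them kept.

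The differences between HT-Flx and WT-Flx followed GC content. Over the 40 members, Pearson's r between GC content and the difference was 0.69, where the points share the same 10 libraries. With the correction it was -0.045, a value near 0 that the centring by GC content itself brings about. Of the 17 members with 50% GC or more, 7 differences were positive and the median was -0.04, and of the 23 with less, 3 were positive and the median was -0.83. Over all genes the slope was 0.801 per 10 percentage points of GC. Of all genes tested 63.7% were called here, and 35.9% with the correction. In lists of 10 markers, 5 were higher and 4 lower for astrocytes, and 4 and 5 for neurons. They were 6 and 1 for microglia, 4 and 3 for oligodendrocytes, and 2 and 3 for endothelium. With the correction these were, in that order, 4 and 2, 2 and 0, 1 and 0, 4 and 1, and 1 and 2. Of 10 leptomeningeal fibroblast markers 8 were higher and 1 lower. Their summed value was 6693 to 9354 in WT-Flx and 10501 to 12033 in HT-Flx. With the correction 5 were higher and 0 lower, and their median went from 0.62 to 0.30. Of the 20 choroid plexus markers, 3 were higher and 6 lower, and 2 and 3 with the correction. The part of any of these cell types in the members' differences was not tested.

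**Figure D4:**
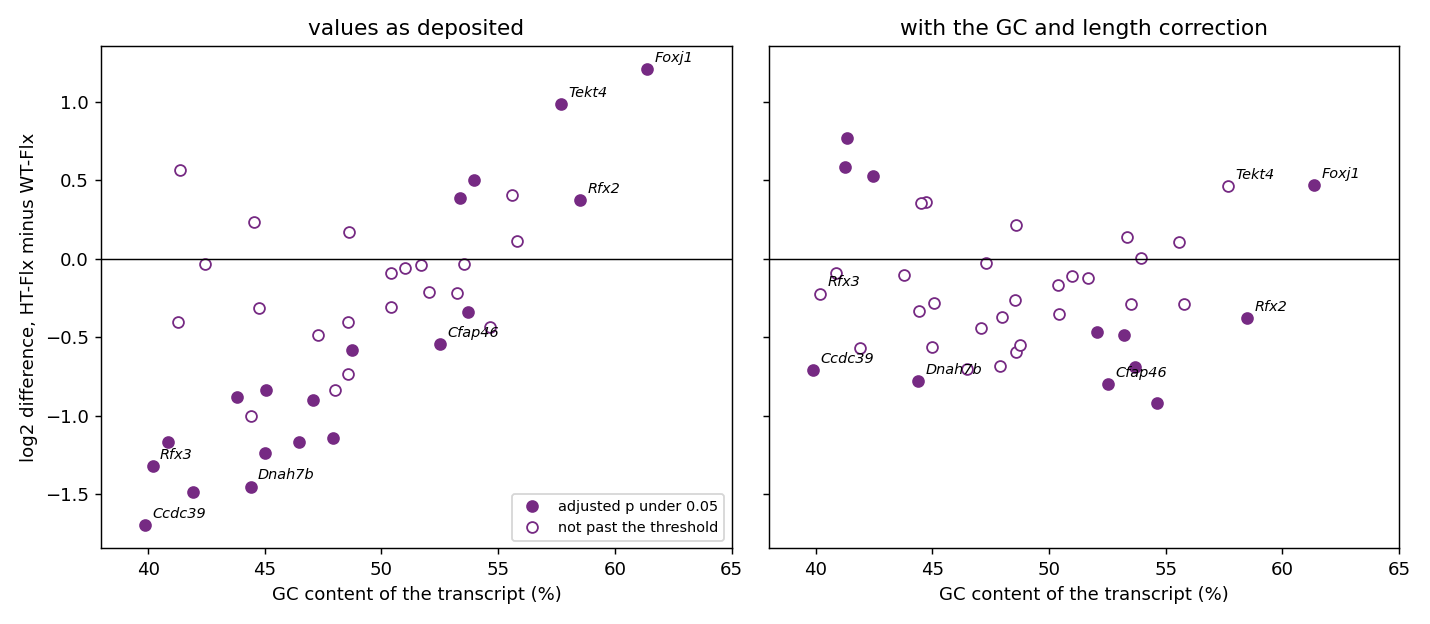
For the 40 members, the log2 difference between HT-Flx and WT-Flx (y axis) is plotted against the GC content of the transcript in percent (x axis), as deposited (left) and with the GC and length correction (right); filled points passed the adjusted p of 0.05. As deposited the points climb from *Ccdc39* (39.9% GC, -1.70) to *Foxj1* (61.4% GC, 1.21). The correction centres each library by GC content, so the flat pattern on the right (r = -0.045) is set by it.

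The effect of fluoxetine within a genotype passed the test for no member. Among HT mice 0 members were called, as were 0% of 17676 genes, and 6 had an unadjusted p under 0.05 (23.1% of all genes); the median was -0.17 (0.02 over all genes). Among WT mice 0 were called, as were 0% of 17865 genes, and 6 had an unadjusted p under 0.05 (25.2% of all genes); the median was 0.20 (-0.00 over all genes). In HT the smallest unadjusted p values were those of *Ccdc39*, which differed by -1.11 ± 0.25 between HT-Flx and HT-Veh (adjusted p = 0.215), and *Dnah7b* (-1.03 ± 0.27). Every HT-Flx mouse lay below every HT-Veh mouse for *Ccdc39*. In WT they were those of *Dnah3*, at 65.97, 79.5, 86.8, 68.6 and 81.9 with fluoxetine and 37.1, 58.7, 32.5, 41.6 and 25.4 with vehicle, with a difference of 0.998 ± 0.21 (adjusted p = 0.0849), and *Rfx2* (-0.31 ± 0.12). The WT-Flx mice all lay above the WT-Veh mice for *Dnah3*. After the correction no member was called in either genotype, the median was -0.08 in HT and 0.13 in WT, and the differences were -0.56 for *Ccdc39* and -0.66 for *Dnah7b* in HT and 0.89 for *Dnah3* and -0.04 for *Rfx2* in WT. Both counts were also 0 without replicate 2 of the vehicle group, where 5 members in HT (18.3% of all genes) and 5 in WT (21.2%) had an unadjusted p under 0.05.

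The interaction asks whether the difference between fluoxetine and vehicle itself differed between the genotypes. It was called for 6 members, 1 positive and 5 negative, where 27.3% of 17796 genes were called (15.8% positive, 11.5% negative), and the members' median was -0.38 (0.01 over all genes). *Foxj1* was positive (0.95 ± 0.33, adjusted p = 0.0427). Negative values were those of *Ccdc39* (-1.64 ± 0.43), *Dnah7b* (-1.31 ± 0.34) and *Cfap43* (-1.15 ± 0.31), each at an adjusted p of 0.0347, *Rfx3* (-1.07 ± 0.37, adjusted p = 0.0399) and *Cfap44* (-0.996 ± 0.35, adjusted p = 0.0439). With the GC and length correction none of the members and 0% of all genes were called. Without WT-Veh replicate 2 none of the members was called, without HT-Veh replicate 2 the count was 5, and without both it was 0. All 6 calls were also lost when WT-Veh replicate 3 or 4, HT-Veh replicate 4 or 5, WT-Flx replicate 2 or 3, or HT-Flx replicate 1 was left out. The interaction and the comparisons within treatment and genotype share these libraries. Drug or vehicle was given to the dams and no litter is named, so litter and treatment cannot be told apart.

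Over the 20 P120 libraries, after each group's mean was removed, the members varied together only in part. The correlation of a member with the mean of the other members had a median of 0.32 and ran from -0.20 (*Dnah7b*) to 0.80 (*Spag17*). Genes outside the set whose pattern was among the most like the members' mean were *Klhl13*, *4833412K13Rik*, *Mme*, *Dpyd*, *Ankfn1*, *Catip*, *Krr1*, *Gm45809* and *Sfxn4* (r = 0.84 to 0.88 over the 20 libraries). None of them was on the lists of ciliary genes used here, which do not hold every ciliary gene. With the GC and length correction *Spag6l*, a central apparatus gene, had rank 7 among the 10 genes most alike (0.78). Genes above it included *Tac1* (0.79), *Fezf1* (0.79), *Gm16323* (0.79), *Magel2* (0.78) and *Sytl4* (0.78), which are on none of the lists. The genes share the same 20 libraries, whose GC slopes differed, so these values describe how the libraries varied.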

How the data were processed

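Whole-brain RNA-seq of 30 mice was deposited as 1 table. Per the labels and the processing notes, the authors quantified reads with Salmon 1.1.0 against GRCm38, summed transcripts to genes, and deposited signal values, which are gene counts divided by DESeq2 1.30.1 size factors. Between 8.7% and 14.3% of low values per library lay within 0.05 of a whole multiple of the library's smallest value. Values with no common step also fall within such a tolerance at times, so these shares show no step. Read depth is therefore unknown and no counting interval is given. Groups came from the labels, and every column had a sample. Gene names were matched for 99.92% of identifiers.

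Each comparison was fitted across all genes with limma 3.58.1 (R 4.3.3) on log2(value + 1), with an intensity trend, for genes with a mean of at least 10, and p-values were adjusted by Benjamini-Hochberg. Single genes also had a two-sided exact permutation test over mice. The replicates are mice, and the labels pair none of them across groups. The same-number correlations of deviations ran from -0.296 to 0.399. For fluoxetine in HT their mean was 0.168, against -0.042 for other numbers, and 3 of 5 pairs were over 0.1. Drug or vehicle was given to the dams, and the labels name no dam or litter. Mice of 1 group may share a dam, while the tests take them as independent, so litter and treatment cannot be told apart. The fits were tested on simulated data. The members, marker lists and promoter patterns were chosen with earlier results of these data known. Genes named with values were the regulators, the 5 members with the largest called difference in each direction, the 2 with the smallest unadjusted p where none was called, the most abundant of each role, *Dnah7a* and *Dnah7b*, and the most and least variable; others are named to account for every member. Alternatives were another pseudocount (0.1 or 5), expression minimum (none or 100) or scaling, a replicate block, libraries left out, and the GC and length correction, added with library slopes known. Cell type marker lists were those of choroid plexus, tanycytes, leptomeninges, astrocytes, oligodendrocytes, microglia, endothelium and neurons. Figures were drawn with matplotlib 3.10.9. One gene among those most like the members is not reported here.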

Additional observations from a re-analysis of the deposited data

Results flagged for a closer look

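Single mice stood apart from their group for 10 of 150 sets of 5 values tested, where chance alone gives about 1 in 20. At P10 these were *Dnah10* in P10-WT replicate 3 (334.1, the highest) and P10-HT replicate 4 (123.9, the lowest), *Dnah11* in P10-WT replicate 2 (175.8, the highest), *Tekt4* in P10-WT replicate 2 (23.2, the lowest), *Ccdc39* in P10-HT replicate 1 (1095, the highest) and *Cfap44* in P10-HT replicate 2 (161.2, the lowest). In adults they were *Dnah12* in WT-Veh replicate 5 (152.3), *Mlf1* in HT-Veh replicate 3 (83.6), *Cfap54* in HT-Flx replicate 4 (182.5) and *Ccdc40* in HT-Flx replicate 1 (103.6), each the highest of its group.

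The difference between fluoxetine and vehicle differed between HT and WT mice, by the interaction term of limma, for 6 members: *Foxj1* (0.948), *Rfx3* (-1.071), *Dnah7b* (-1.309), *Ccdc39* (-1.636), *Cfap43* (-1.15) and *Cfap44* (-0.996). The interaction was called for 27.3% of all 17796 genes tested, beside 15% of the 40 members. None of the 6 member calls remained with the GC and length correction, nor without WT-Veh replicate 2.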

How the results depend on the processing

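The 36 calls followed through every setting were those of the members with the largest called differences in each direction within a comparison. Of these 36, 19 held in every setting, 25 in every setting without the GC and length correction, and 1 was reversed. The reversed call was that of *Rfx2* between HT-Flx and WT-Flx, at -0.38 with that correction, alone or with the replicate block. Other calls named above are not in these counts. Among them, those of *Dnah10*, *Mlf1*, *Cfap69* and *Cfap54* with age in HT were lost without single libraries, as given above. The members called between HT-Flx and WT-Flx were 12 of 40 with the correction, beside 6385 of 17799 genes tested. With the correction and the replicate block they were 7 of 40, beside 5222 of 17799. The interaction count of 6 was 0 with the correction (alone, with the replicate block, or without both Veh replicate 2 libraries) and 0 without both libraries that go against their label, and its median was -0.19 with the correction, with or without the block. The age count in WT was 12 with a mean of at least 100, which left fewer genes tested. The age median in HT was 0.059 with the correction, with or without the block, and 0.026 when Veh replicate 2 was also left out. The cause was not tested.

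Leaving out 1 library gave 0 to 1 members for fluoxetine in WT (1 without WT-Veh replicate 1 or 5). For the interaction it gave 0 to 11 (0 without WT-Veh replicate 2, 11 without HT-Veh replicate 1). With the replicate block alone, 3 members were called for fluoxetine in HT, and the labels do not pair the mice. The shares of all genes called beside these counts of 1, 11 and 3 are not given here, so the counts are not read as results about the members. The GC and length correction combined with leaving out libraries was chosen after seeing the data. The number of mice, 5 a group, limits the precision, and read depth is unknown.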

Other observations

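Marker lists of other cell types also differed between P10 and P120, where 58.3% of all genes tested were called in WT and 51.1% in HT. Of 10 oligodendrocyte markers, 6 rose and 0 fell in WT, and 8 rose and 0 fell in HT. Of 10 microglia markers, 7 rose and 1 fell in WT, and 7 rose and 0 fell in HT. Among astrocyte markers 5 rose and 1 fell in each genotype, and among neuron markers 5 rose with 2 falling in WT and 3 in HT. Of 10 endothelial markers, 4 rose and 6 fell in WT, and 4 rose and 4 fell in HT. Leptomeningeal fibroblast markers divided into 4 higher and 5 lower in WT and 5 higher and 2 lower in HT, and of 3 tanycyte markers 1 fell in each genotype. Without the vehicle replicate 2 libraries each of these counts moved by at most 1, and with the GC and length correction by at most 2. Age, the vehicle and any batch cannot be told apart here.

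Genes of the primary cilium, the single sensory cilium that most brain cells carry, divided with age into 12 higher and 7 lower of 49 in WT. In HT 10 were higher and 10 lower, and of all genes 58.3% were called in WT and 51.1% in HT. With the correction these were 14 and 6 in WT and 16 and 8 in HT (59.6% and 55.9% of all genes). Without the vehicle replicate 2 libraries they were 10 and 7 in WT and 9 and 8 in HT (56.1% and 45.6% of all genes). Between HT-Flx and WT-Flx, 12 were higher and 26 lower, where 33.1% of all genes were higher and 30.5% lower. With the correction 3 were higher and 18 lower, beside 35.9% of all genes called in either direction, and the median of the list went from -0.37 to -0.16. Among the choroid plexus markers, *Ttr*, which carries thyroid hormone in cerebrospinal fluid, rose with age by 1.05 in WT and 1.56 in HT on the log2 scale, *Kl* (Klotho) by 2.33 and 2.36, and the folate receptor gene *Folr1* by 1.40 and 2.20. *Tekt2*, a tektin that is not among the members, fell by 1.20 and 1.62.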
